A study of Rattus norvegicus with 12 samples.

Results

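Genes of fatty acid uptake and of mitochondrial fatty acid oxidation were followed in the right and left atria of rats with and without volume overload of the heart. The set named 36 genes by symbol, in the order of the pathway: 3 of uptake, 5 of activation, 7 of the carnitine shuttle, 14 of beta-oxidation, 3 of electron transfer and 4 of regulation and export. Each gene was represented by the probe set that names it alone and has the highest mean over the 12 arrays. By this rule 35 of the 36 had a value, among 14217 genes measured in the same way, and all 35 were tested because no filter on low values was applied. Acaa1a, the peroxisomal 3-ketoacyl-CoA thiolase, was named only by a probe set shared with Acaa1b and has no value here.

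The tissue was atrial appendage from male Sprague-Dawley rats, taken 28 days after surgery. Rats received either an aorto-caval shunt or sham surgery. The shunt joins the large abdominal artery and vein and loads the heart with extra blood volume. The 4 groups were the right atrium of sham and of shunt rats and the left atrium of sham and of shunt rats. They shared strain and sex, and the labels give no age, allele or drug for any of them. Each group had 3 arrays, and each array held RNA pooled from 2 tissues, so the p-values measure only the spread between such pools. The labels give the source of every sample as right or left atrial tissue, while their tissue entry also names ventricles. The tissue is a mixture of cells, and in it fewer cells of a type and less RNA per cell cannot be told apart.

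The heart burns mainly fatty acids. They are freed from circulating triglyceride, cross the plasma membrane, are bound to coenzyme A, and enter the mitochondrion as carnitine esters, a step that malonyl-CoA holds back. Inside, acyl-CoA dehydrogenases of different chain length, the trifunctional protein and thiolases shorten the chain, and electrons pass through the electron transfer flavoprotein to the respiratory chain. The nuclear receptor Ppara and its coactivator Ppargc1a drive many of these genes in heart muscle.

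The values were log2 expression values made by RMA, in which a difference of 1 is a factor of 2 in signal. Defining markers of atrial muscle were present on all arrays, with Nppa at 14.37 to 14.43, the top of the range, and Myl7 at 14.06 to 14.27. Kcna5 and Gja5, also in the list of 7 atrial muscle markers, were far lower, between 5.18 and 6.51. Of the 7, Kcna5 alone was called with shunt, as lower in the right atrium (limma, adjusted p = 0.00839). Its means were 6.27 in the right sham, 5.36 in the right shunt, 6.30 in the left sham and 5.63 in the left shunt atrium. The mean of 5 ventricular muscle markers was 7.99 to 8.18 in the right sham, 8.56 to 9.69 in the right shunt, 5.94 to 6.28 in the left sham and 6.59 to 7.02 in the left shunt atrium, so right and left tissue also differed in these genes. The 3 prime over 5 prime signal of the beta-actin control, a sign of RNA quality, was 1.58 to 1.82 in log2 in the right sham, 1.91 to 2.03 in the right shunt, 1.31 to 1.31 in the left sham and 1.14 to 1.39 in the left shunt atrium. For the GAPDH control it was 0.32 to 0.40, 0.35 to 0.38, 0.20 to 0.21 and 0.18 to 0.28 in the same order. Replicate 3 of the shunt group in the left atrium lay away from the other 2 arrays, at 26.70 on a principal component of 9.76% of the variance where they were at -14.95 and -13.62. Its mean of 8 adipocyte markers was 6.85, the highest of its group, where the lowest was 5.86. On the left sham arrays this mean was 6.07 to 6.45. The brown fat gene Ucp1 was at 7.56 on replicate 3 and at 4.22 and 4.66 on replicates 1 and 2. The value without this array is given as well where leaving it out changes a shunt minus sham call of the 35 genes. It is also given where a printed value on their probe set of highest mean moves by over 1.5 times.

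**Figure D1:**
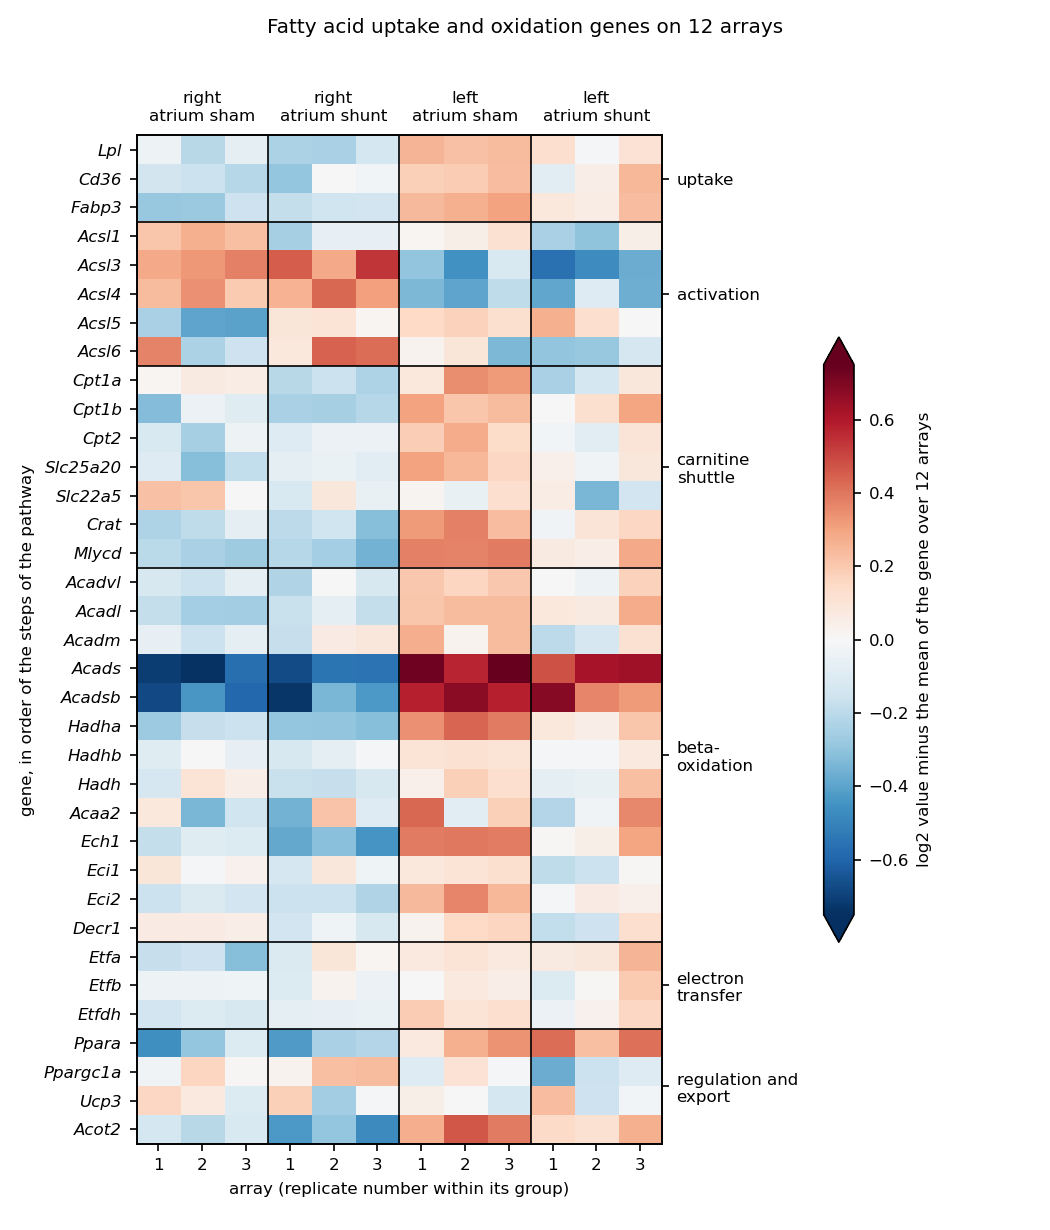
Values of the 35 measured genes on the 12 arrays, as the log2 value minus the mean of the gene over all arrays (blue below, red above, colours ending at 0.75 to either side). Rows follow the steps of the pathway and columns the 3 arrays of each group. Most rows of the carnitine shuttle and of beta-oxidation are red on the left sham arrays, and Acsl3 and Acsl4 are red on the right ones.

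In sham animals, most genes of the pathway were more highly expressed in the left than in the right atrium. Of the 35 genes, 20 were higher on the left and 2, Acsl3 and Acsl4, were lower, at an adjusted p under 0.05 over all 31042 probe sets (limma), and 13 did not pass. Over all genes 22.2% were called higher on the left and 15.4% lower. The median difference over the 35 genes was 0.31 in log2, left minus right, against 0.04 over all genes. The 3 left sham arrays lay above the 3 right sham arrays for 24 of the 35, against 30.2% of all genes, and below them for 3, against 22.6%. By step, the genes called higher were 3 of 3 of uptake, 1 of 5 of activation, 5 of 7 of the carnitine shuttle, 7 of 13 of beta-oxidation, 2 of 3 of electron transfer and 2 of 4 of regulation and export. With left shunt replicate 3 left out of the spread shared by all groups, 21 were called higher, 2 lower and 12 did not pass.

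After shunt the same comparison called 13 genes higher on the left and 4 lower, with 18 that did not pass, against 21% and 19.4% of all genes. The median difference was 0.12, against 0.04 over all genes, and 27 of the 35 differences were positive. Without left shunt replicate 3 the counts called were again 13 and 4, the median was 0.08, against 0.04 over all genes, and 24 were positive. The left shunt arrays lay above the right shunt arrays for 16 of the 35, against 28.5% of all genes, and below them for 4, against 24.1%. The 2 comparisons use different arrays, and 13 genes were higher on the left in both, against 13.8% of all genes. They were Lpl, Fabp3, Cpt1b, Crat, Mlycd, Acadl, Acads, Acadsb, Hadha, Ech1, Eci2, Ppara and Acot2. Acsl3 and Acsl4 were lower on the left in both, against 12.1% of all genes. Another 7 genes passed in sham alone (Cd36, Acsl5, Cpt2, Slc25a20, Acadvl, Etfa and Etfdh), and Acsl6 and Ppargc1a passed, as lower on the left, in shunt alone. For none of these 9 did the left minus right difference itself change between operations past the threshold. Other features differed between the atria as well: 4 of the 5 ventricular markers were lower in the left sham atrium, Myl2 by 5.69 ± 0.30. The 3 prime over 5 prime signal was 0.35 lower there for beta-actin and 0.145 lower for GAPDH. Markers of smooth muscle (3 of 4 called higher on the left, median 0.49) and of mesothelium (2 of 3, median 0.94) and 2 higher and 1 lower of 6 fibroblast markers also passed. So did 2 higher and 2 lower of 7 endothelial, 2 higher of 8 adipocyte and 1 lower of 6 macrophage markers. Of 5 brown adipocyte markers 1 was higher, Ppara, which is also a member. The smooth muscle mean was 6.76 to 6.96 in the right and 7.21 to 7.30 in the left sham atrium, and the mesothelial mean 6.70 to 6.95 and 7.38 to 7.68. The part of these markers and controls in the result was not tested.

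**Figure D2:**
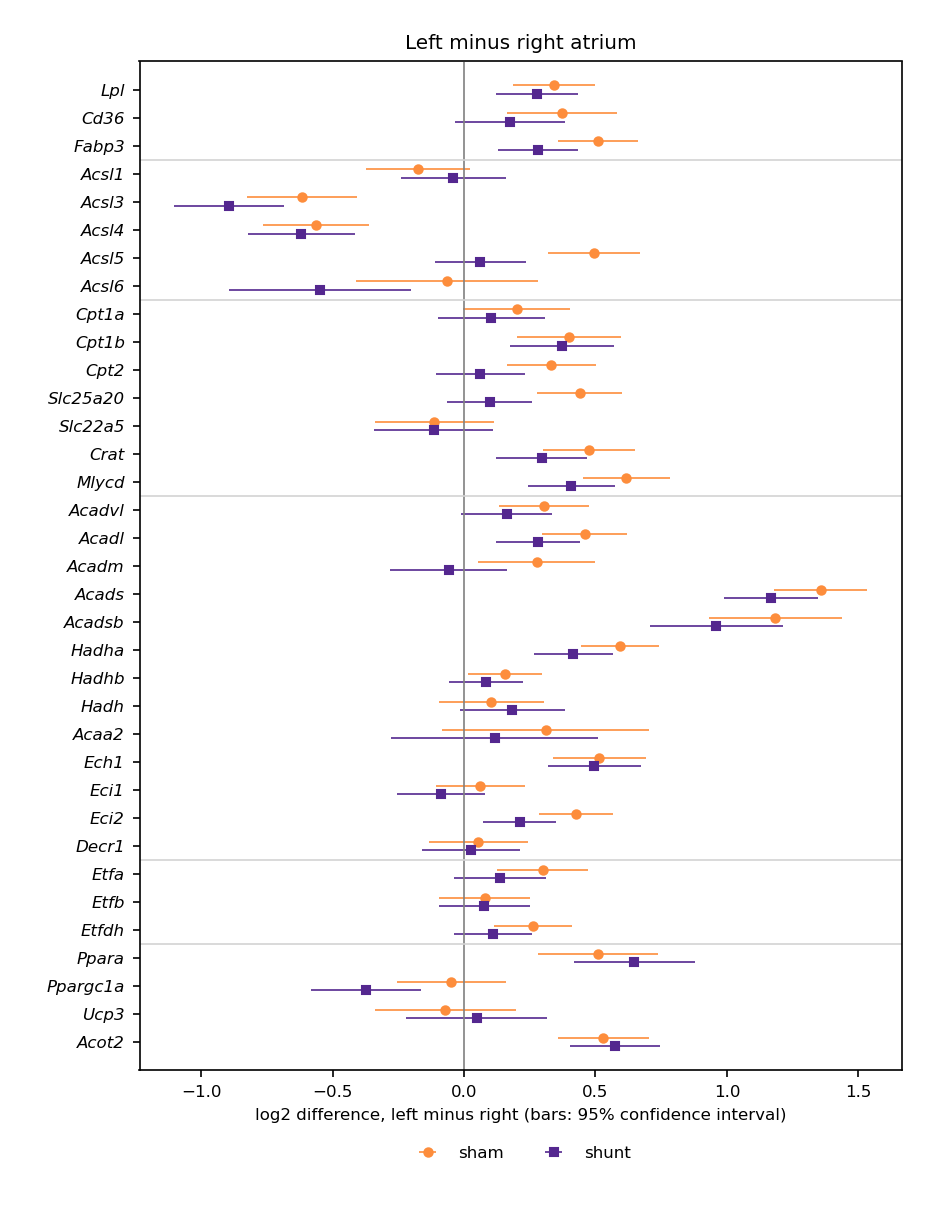
Left minus right atrium difference of each gene in log2, in sham (orange circles) and shunt animals (purple squares), with 95% confidence intervals of the fit from 3 arrays per group. Acads and Acadsb lie farthest to the right and Acsl3 and Acsl4 farthest to the left in both operations.

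The shunt itself changed few of these genes past the threshold. In the right atrium 1 of 35 passed, Acsl5, which rose, against 2.83% of all genes called higher and 1.14% called lower. The median change over the 35 was -0.003, against 0.02 over all genes. The right shunt arrays lay above the right sham arrays for 4 genes (Acsl5, Slc25a20, Etfa and Etfdh), against 19.4% of all genes, and below them for 6 (Acsl1, Cpt1a, Hadha, Ech1, Decr1 and Acot2), against 12.6%. With left shunt replicate 3 left out of the spread shared by all groups, Acsl1 (adjusted p = 0.0165) and Ech1 (adjusted p = 0.045) also passed as lower in the right atrium, against 2.04% of all genes. In the left atrium none of the 35 passed in the limma fit, against 0.935% of all genes. At an unadjusted p under 0.05 there were 14, all lower after shunt, against 7.82% of all genes lower and 6.9% higher. The change was negative for 31 of the 35, its median was -0.16, against -0.005 over all genes, and 48.6% of all genes had a positive change. The 3 left shunt arrays lay below the 3 left sham arrays for 12 genes, against 10.4% of all genes, and above them for none, against 8.69%. The 12 were Lpl, Fabp3, Cpt2, Slc25a20, Crat, Mlycd, Hadha, Hadhb, Ech1, Eci1, Eci2 and Acot2.

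Without left atrium shunt replicate 3, 4 genes fell in the left atrium past the threshold, against 1.03% of all genes called lower, and 18 had an unadjusted p under 0.05, against 16.6% of all genes in either direction. Cpt1a fell by 0.44 (adjusted p = 0.0292), Ech1 by 0.36 (adjusted p = 0.0271), Hadha by 0.33 (adjusted p = 0.0449) and Mlycd by 0.32 (adjusted p = 0.0475). The median change was then -0.22. Replicate 3 lay above both other left shunt arrays for 27 of the 35 genes (77.1%), against 36.6% of all genes, and 24 genes were below all left sham arrays on replicates 1 and 2 while 15 were on replicate 3, against 17.7% and 32.4% of all genes. Set against the left sham mean, the median gene lay at -0.22, -0.21 and -0.06 on left shunt replicates 1, 2 and 3. On replicate 3, 7 of the 8 adipocyte and 4 of the 5 brown adipocyte markers lay above both other arrays. Of these 4, Cidea and Cox8b were bright on all 12 arrays and Elovl3 was dim (3.13 on replicate 3). The same held for 3 of 7 atrial muscle, 2 of 4 neuronal and 1 of 7 endothelial markers. It held for 1 of 5 ventricular and 1 of 5 skeletal muscle markers. For fibroblast (6), macrophage (6), smooth muscle (4), mesothelial (3) and erythrocyte markers (2) the count was 0. The part of these cell types in the result was not tested.

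**Figure D3:**
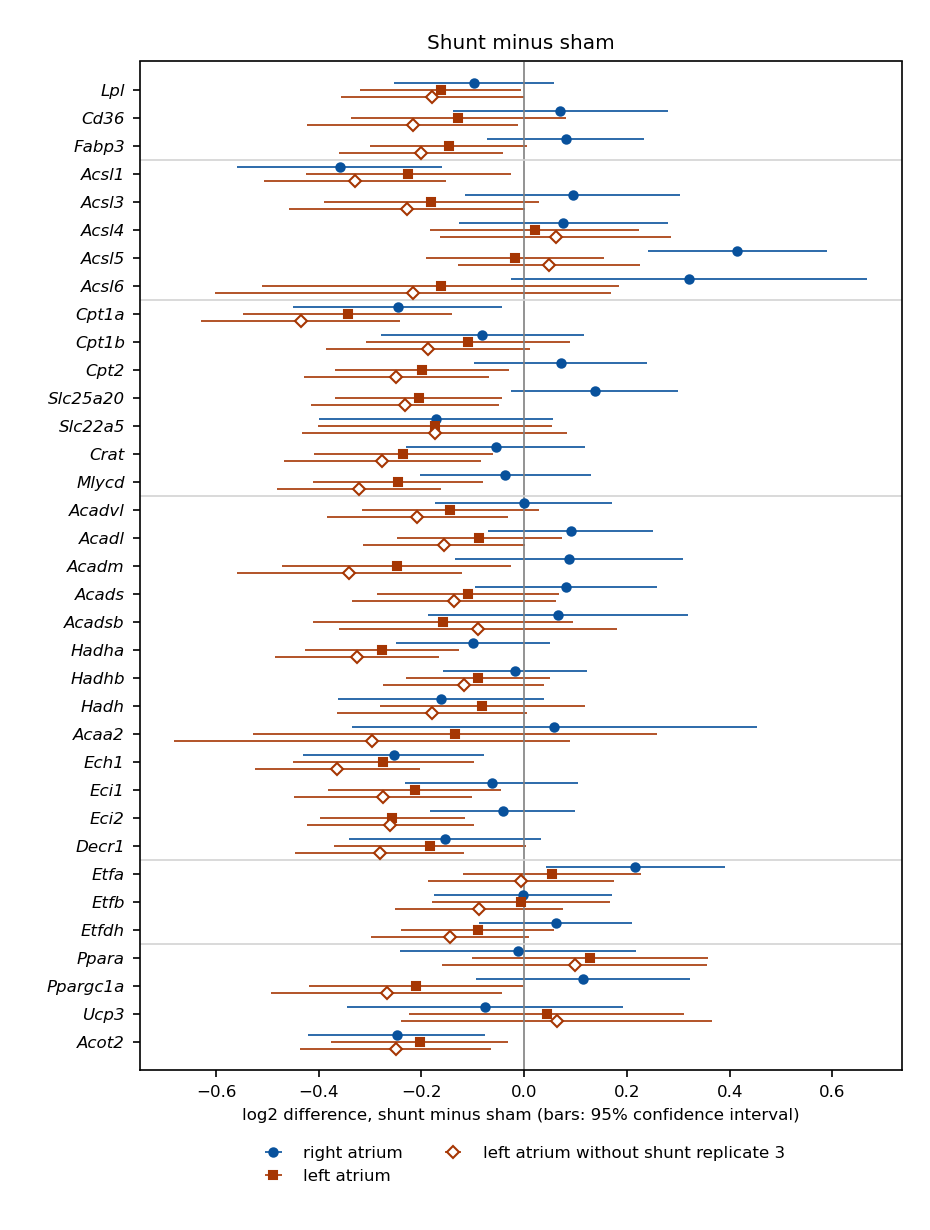
Shunt minus sham change of each gene in log2, in the right atrium (blue circles), the left atrium (brown squares) and the left atrium without shunt replicate 3 (open diamonds), with 95% confidence intervals of the fit. The left atrium values lie below 0 for 31 of 35 genes, and Acsl5 in the right atrium lies farthest to the right.

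Averaged over both atria, a value that uses the same arrays as the comparisons in each atrium, 4 genes fell and none rose, against 1.86% of all genes called lower and 3.4% called higher. Ech1 fell by 0.26 (adjusted p = 0.0244), Acsl1 by 0.29 (adjusted p = 0.0269), Cpt1a by 0.29 (adjusted p = 0.0283) and Acot2 by 0.23 (adjusted p = 0.0431). None of the 35 passed without right sham 2 or 3, right shunt 1, left sham 2 or 3, or left shunt 1 or 2. Only 2 passed without right sham 1 and 1 without right shunt 3. Without left shunt 3, 8 passed, with 7 lower and Acsl5 higher, against 2.84% and 5.72% of all genes. Those past the threshold then and not in the main fit were Hadha (-0.21, adjusted p = 0.0233), Decr1 (-0.22, adjusted p = 0.0242), Mlycd (-0.18, adjusted p = 0.0499) and Acsl5 (0.23, adjusted p = 0.0261). Hadha, Decr1 and Acsl5 also passed in alternatives that kept all arrays. The left minus right difference of the shunt effect passed for none of the 35 (limma), against 0.0281% of all genes, and had an unadjusted p under 0.05 for 7, all negative, against 8.53% of all genes negative and 5.98% positive. Its median over the 35 was -0.16, against -0.04 over all genes, and 30 of the 35 were negative, against 57.7% of all genes. Without left shunt replicate 3 the unadjusted p was under 0.05 for 14, against 14.3% of all genes in either direction, the median was -0.21 and 32 were negative, and again none passed.

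Uptake was represented by 3 genes, all higher in the left sham atrium. Lpl (probe set 1386965_at), the lipase that frees fatty acids from circulating triglyceride, was at 12.44, 12.27 and 12.40 in the right sham, 12.24, 12.23 and 12.34 in the right shunt, 12.73, 12.70 and 12.71 in the left sham and 12.60, 12.46 and 12.58 in the left shunt atrium. Every left array lay above every right array, and the left shunt arrays lay below the left sham arrays. The left minus right difference was 0.34 ± 0.07 in sham (SE of the fit, n = 3 pools per group here and below, adjusted p = 0.00259) and 0.28 ± 0.07 in shunt (adjusted p = 0.0095). The change with shunt was -0.16 ± 0.07 in the left atrium (adjusted p = 0.347) and -0.10 ± 0.07 in the right (adjusted p = 0.497).

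Cd36 (probe set 1367689_a_at), the fatty acid translocase of the plasma membrane, measured 10.96, 10.94 and 10.89 on right sham, 10.81, 11.11 and 11.08 on right shunt, 11.28, 11.29 and 11.34 on left sham and 11.02, 11.15 and 11.35 on left shunt arrays. Left and right were apart in sham and overlapped after shunt, where left replicate 1 lay among the right arrays. The difference was 0.37 ± 0.10 in sham (1.29-fold, adjusted p = 0.0094) and 0.17 ± 0.10 in shunt (adjusted p = 0.177, 95% interval -0.04 to 0.38), or 0.08 without left shunt replicate 3 (adjusted p = 0.514). Fabp3 (probe set 1367660_at), the heart form of the fatty acid binding proteins, was at 12.66, 12.66 and 12.78 in the right sham, 12.76, 12.79 and 12.79 in the right shunt, 13.18, 13.20 and 13.24 in the left sham and 13.02, 12.996 and 13.17 in the left shunt atrium. Its left arrays were all above its right arrays, by 0.51 ± 0.07 in sham (1.42-fold, adjusted p = 0.000141) and by 0.28 ± 0.07 in shunt (adjusted p = 0.00792). The left shunt arrays of Fabp3 lay below the left sham arrays, with a change of -0.15 ± 0.07 that did not pass (adjusted p = 0.387).

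Activation, the joining of fatty acids to coenzyme A, was the step in which the synthetases went different ways between the atria. Acsl1 (probe set 1370939_at), the main long-chain synthetase of heart muscle, was at 11.43, 11.49 and 11.45 in the right sham, 10.97, 11.16 and 11.16 in the right shunt, 11.24, 11.27 and 11.34 in the left sham and 10.98, 10.92 and 11.26 in the left shunt atrium. The right shunt arrays were all below the right sham arrays, and in the left atrium shunt replicates 1 and 2 were below all sham arrays while replicate 3 lay among them. The change was -0.36 ± 0.09 in the right atrium (adjusted p = 0.0557) and -0.23 ± 0.09 in the left (adjusted p = 0.303), and only their average passed, as given above. A second probe set, 1388153_at, gave an average of -0.32 ± 0.06 (adjusted p = 0.0123), and another, 1382887_at, which was dim, gave 0.11 ± 0.07 (adjusted p = 0.482). Left and right did not differ past the threshold in sham (-0.17, adjusted p = 0.16) or in shunt (-0.04, adjusted p = 0.749, and -0.15 without left shunt replicate 3, adjusted p = 0.184).

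Acsl5 (probe set 1386926_at), a long-chain synthetase of mitochondria and endoplasmic reticulum, was at 7.76, 7.61 and 7.60 in the right sham, 8.10, 8.11 and 8.02 in the right shunt, 8.16, 8.18 and 8.13 in the left sham and 8.27, 8.13 and 8.004 in the left shunt atrium. The 3 right sham arrays were low and stood apart from the other 9. Acsl5 rose in the right atrium by 0.41 ± 0.08 (1.33-fold, adjusted p = 0.0201) and was -0.02 ± 0.08 after shunt in the left (adjusted p = 0.948), or 0.05 without left shunt replicate 3 (adjusted p = 0.854). The other probe set that names Acsl5 alone, 1397375_at, gave 0.28 ± 0.10 in the right atrium with overlapping arrays and did not pass (adjusted p = 0.15). On 1386926_at the left minus right difference of the shunt effect was -0.43 ± 0.11 and did not pass (adjusted p = 0.166). The rise was past the threshold with any left array left out and not without 1 of 4 right arrays: it was 0.39 without right sham 2 (adjusted p = 0.0824), 0.39 without right sham 3 (adjusted p = 0.0725), 0.40 without right shunt 1 (adjusted p = 0.072) and 0.40 without right shunt 2 (adjusted p = 0.0874). In sham the left atrium was 1.41-fold higher (0.49 ± 0.08, adjusted p = 0.000437), while after shunt the difference was 0.06 ± 0.08 (adjusted p = 0.571), or 0.13 without left shunt replicate 3 (adjusted p = 0.243). In the right shunt atrium 3 of 6 macrophage markers and 4 of 5 ventricular markers also rose, the macrophage list mean going from 7.14 to 7.23 in the right sham to 7.68 to 7.80 in the right shunt atrium, and their part in the change of Acsl5 was not tested.

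Acsl3 (probe set 1368177_at), a synthetase tied to lipid droplets, was at 6.32, 6.36 and 6.41 in the right sham, 6.49, 6.32 and 6.58 in the right shunt, 5.74, 5.58 and 5.92 in the left sham and 5.48, 5.57 and 5.66 in the left shunt atrium. All 6 left arrays lay below all 6 right arrays. It was 1.53-fold lower on the left in sham (-0.62 ± 0.10, adjusted p = 0.000336) and 1.86-fold lower in shunt (-0.89 ± 0.10, adjusted p = 3.52e-05). Acsl4 (probe set 1387101_at), the synthetase that prefers arachidonate, measured 7.52, 7.62 and 7.48 on right sham, 7.54, 7.71 and 7.59 on right shunt, 6.95, 6.89 and 7.09 on left sham and 6.89, 7.19 and 6.92 on left shunt arrays. Its left arrays were again all below its right arrays, by 0.56 ± 0.09 in sham (adjusted p = 0.000525) and 0.62 ± 0.09 in shunt (adjusted p = 0.000344). Neither gene changed with shunt past the threshold in either atrium.

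Acsl6 (probe set 1368182_at), a synthetase best known from brain, was dim and scattered, at 5.02, 4.42 and 4.49 in the right sham, 4.73, 5.09 and 5.07 in the right shunt, 4.68, 4.74 and 4.32 in the left sham and 4.36, 4.37 and 4.53 in the left shunt atrium. The sham groups overlapped, and the left shunt arrays lay below the right shunt arrays. It was lower on the left after shunt (-0.55 ± 0.16, adjusted p = 0.0174) and did not differ past the threshold in sham (-0.07 ± 0.16, adjusted p = 0.785). The call was lost without right shunt 2 (-0.48, adjusted p = 0.0672) or right shunt 3 (-0.50, adjusted p = 0.0609).

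The carnitine shuttle held 7 genes, of which 5 were higher in the left sham atrium and 3 in the left shunt atrium. Cpt1b (probe set 1367742_at), the muscle form of carnitine palmitoyltransferase 1 and the gate of the pathway in heart, was at 10.98, 11.26 and 11.21 in the right sham, 11.06, 11.05 and 11.09 in the right shunt, 11.60, 11.51 and 11.54 in the left sham and 11.30, 11.42 and 11.60 in the left shunt atrium. All left arrays exceeded all right arrays, by 0.40 ± 0.09 in sham (1.32-fold, adjusted p = 0.00434) and 0.37 ± 0.09 in shunt (1.29-fold, adjusted p = 0.00686). The change with shunt did not pass in the right atrium (-0.08, 95% interval -0.28 to 0.12) or in the left (-0.11, 95% interval -0.31 to 0.09). Without left shunt replicate 3 the left value was -0.19 (95% interval -0.39 to 0.01).

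Cpt1a (probe set 1386946_at), the liver form of the same enzyme, was at 9.09, 9.14 and 9.13 in the right sham, 8.87, 8.91 and 8.84 in the right shunt, 9.15, 9.42 and 9.39 in the left sham and 8.83, 8.94 and 9.16 in the left shunt atrium. In the right atrium all shunt arrays lay below all sham arrays, and in the left atrium shunt replicate 3 reached the lowest sham array. The change was -0.25 ± 0.09 in the right atrium (adjusted p = 0.171) and -0.34 ± 0.09 in the left (adjusted p = 0.12). The left minus right difference was 0.20 ± 0.09 in sham (adjusted p = 0.115) and 0.10 ± 0.09 in shunt (adjusted p = 0.409), or 0.01 in shunt without left shunt replicate 3 (adjusted p = 0.932).

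Another probe set of Cpt1a, 1367836_at, gave larger differences. It measured 6.85, 7.12 and 7.13 in the right sham, 6.86, 6.87 and 6.86 in the right shunt, 8.62, 8.79 and 8.75 in the left sham and 8.19, 8.14 and 8.10 in the left shunt atrium. The left sham arrays were the highest, the left shunt arrays came next, and no left array overlapped a right one. The left atrium was 3.23-fold higher in sham (1.69 ± 0.08, adjusted p = 1.75e-07) and 2.43-fold higher in shunt (1.28 ± 0.08, adjusted p = 1.44e-06). In the left atrium this signal fell with shunt by 0.58 ± 0.08 (adjusted p = 0.00742), a call that the probe set of highest mean did not give, while in the right atrium it was -0.17 ± 0.08 (adjusted p = 0.299).

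Cpt2 (probe set 1386927_at), the palmitoyltransferase of the inner mitochondrial membrane, was at 8.97, 8.84 and 9.05 in the right sham, 8.99, 9.04 and 9.04 in the right shunt, 9.27, 9.36 and 9.22 in the left sham and 9.06, 9.01 and 9.18 in the left shunt atrium. The left sham arrays were the highest of the 12, and left and right overlapped after shunt. It was higher on the left in sham (0.33 ± 0.08, adjusted p = 0.00517) and not past the threshold in shunt (0.06 ± 0.08, adjusted p = 0.557, and 0.01 without left replicate 3, adjusted p = 0.923), and the difference between the shunt effects was -0.27 ± 0.11 (adjusted p = 0.299). Slc25a20 (probe set 1398249_at), the carrier that exchanges acylcarnitine for carnitine, measured 9.31, 9.09 and 9.22 on right sham, 9.34, 9.36 and 9.33 on right shunt, 9.71, 9.66 and 9.57 on left sham and 9.45, 9.38 and 9.49 on left shunt arrays. After shunt all right arrays were above their sham arrays and all left arrays below theirs, so that the gap between the atria was smaller. The left minus right difference was 0.44 ± 0.08 in sham (adjusted p = 0.000628) and 0.10 ± 0.08 in shunt (adjusted p = 0.33). The change between them was -0.34 ± 0.11 and did not pass (adjusted p = 0.207).

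Mlycd (probe set 1367638_at), the decarboxylase that removes malonyl-CoA, was at 9.04, 9.002 and 8.98 in the right sham, 9.03, 8.99 and 8.89 in the right shunt, 9.62, 9.62 and 9.63 in the left sham and 9.31, 9.29 and 9.53 in the left shunt atrium. The left sham arrays lay close together and far above the right arrays, and the left shunt arrays lay between. The left atrium was 1.53-fold higher in sham (0.62 ± 0.08, adjusted p = 6.04e-05) and 1.33-fold higher in shunt (0.41 ± 0.08, adjusted p = 0.00135). Crat (probe set 1371886_at), which forms acetylcarnitine from acetyl-CoA, measured 9.26, 9.31 and 9.42 on right sham, 9.30, 9.35 and 9.17 on right shunt, 9.81, 9.87 and 9.73 on left sham and 9.47, 9.59 and 9.65 on left shunt arrays. Left was above right without overlap, by 0.48 ± 0.08 in sham (adjusted p = 0.000579) and 0.30 ± 0.08 in shunt (adjusted p = 0.012). Without right shunt 3 the difference of Crat in shunt was 0.25 and did not pass (adjusted p = 0.052). Slc22a5, the carnitine transporter of the plasma membrane, lay between 6.48 and 7.04 on all arrays and passed in no comparison.

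Beta-oxidation held 13 measured genes, and all 13 had a positive left minus right difference in sham, 7 of them past the threshold. The largest left minus right differences belonged to 2 dehydrogenases of short chains. Acads (probe set 1367828_at), the short-chain acyl-CoA dehydrogenase, was at 8.03, 7.999 and 8.18 in the right sham, 8.07, 8.19 and 8.19 in the right shunt, 9.47, 9.31 and 9.50 in the left sham and 9.22, 9.36 and 9.37 in the left shunt atrium. Every left array exceeded every right array by more than the whole range within either atrium. The left atrium was 2.56-fold higher in sham (1.36 ± 0.08, adjusted p = 3.77e-07) and 2.25-fold higher in shunt (1.17 ± 0.08, adjusted p = 2.17e-06). Acadsb (probe set 1369526_at), the dehydrogenase of short branched chains, which acts in isoleucine breakdown, measured 6.22, 6.46 and 6.31 on right sham, 6.16, 6.55 and 6.46 on right shunt, 7.48, 7.57 and 7.48 on left sham and 7.58, 7.26 and 7.22 on left shunt arrays. It too was higher on every left array, 2.27-fold in sham (1.18 ± 0.12, adjusted p = 1.17e-05) and 1.94-fold in shunt (0.96 ± 0.12, adjusted p = 7.48e-05). With shunt neither changed past the threshold: the change of Acads was 0.08 in the right (95% interval -0.10 to 0.26) and -0.11 in the left atrium (95% interval -0.29 to 0.07).

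The dehydrogenases of longer chains had lower left-right values. Acadvl (probe set 1367897_at), for very long chains, was at 9.87, 9.82 and 9.92 in the right sham, 9.76, 9.98 and 9.86 in the right shunt, 10.19, 10.15 and 10.19 in the left sham and 9.98, 9.95 and 10.16 in the left shunt atrium. Left was above right in sham without overlap, and after shunt the arrays of both atria overlapped. The difference was 0.30 ± 0.08 in sham (adjusted p = 0.00952) and 0.16 ± 0.08 in shunt (adjusted p = 0.127), or 0.10 without left shunt replicate 3 (adjusted p = 0.371). Acadl (probe set 1367735_at), for long chains, measured 11.78, 11.71 and 11.70 on right sham, 11.79, 11.89 and 11.78 on right shunt, 12.17, 12.20 and 12.20 on left sham and 12.04, 12.03 and 12.24 on left shunt arrays. All left arrays were above all right arrays, by 0.46 ± 0.07 in sham (adjusted p = 0.000426) and 0.28 ± 0.07 in shunt (adjusted p = 0.0104).

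Acadm (probe set 1367702_at), the medium-chain dehydrogenase, was at 10.99, 10.89 and 10.98 in the right sham, 10.88, 11.11 and 11.14 in the right shunt, 11.32, 11.08 and 11.29 in the left sham and 10.86, 10.92 and 11.17 in the left shunt atrium. The sham groups did not overlap and the shunt groups did. The difference narrowly missed the threshold in sham (0.28 ± 0.10, adjusted p = 0.0519) and was -0.06 ± 0.10 in shunt (adjusted p = 0.678), or -0.15 without left shunt replicate 3 (adjusted p = 0.264). The change with shunt in the left atrium was -0.25 ± 0.10 (adjusted p = 0.309), and -0.34 ± 0.10 without left shunt replicate 3 (adjusted p = 0.122).

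Hadha (probe set 1370164_at), the alpha subunit of the trifunctional protein that carries the hydratase and the long-chain hydroxyacyl-CoA dehydrogenase, was at 10.85, 10.95 and 10.96 in the right sham, 10.83, 10.83 and 10.80 in the right shunt, 11.47, 11.56 and 11.52 in the left sham and 11.20, 11.18 and 11.33 in the left shunt atrium. The 4 groups did not overlap: left sham was highest, then left shunt, then right sham, then right shunt. The left atrium was 1.51-fold higher in sham (0.59 ± 0.07, adjusted p = 3.86e-05) and 1.33-fold higher in shunt (0.42 ± 0.07, adjusted p = 0.000624). Its change with shunt in the left atrium, -0.28 ± 0.07, had the smallest adjusted p of the 35 there and did not pass (adjusted p = 0.0951). Hadhb, the beta subunit with the thiolase, showed a left minus right difference of 0.16 ± 0.06 in sham that did not pass (adjusted p = 0.0775), with no overlap between the sham groups. The difference between Hadha and Hadhb was not tested, and 2 other probe sets of Hadha, at 2.91 to 3.19 and 4.59 to 5.26, did not pass in any comparison.

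Ech1 (probe set 1386885_at), the dienoyl-CoA isomerase for unsaturated chains, was at 11.08, 11.16 and 11.15 in the right sham, 10.87, 10.94 and 10.81 in the right shunt, 11.65, 11.65 and 11.64 in the left sham and 11.27, 11.30 and 11.55 in the left shunt atrium. In each atrium the shunt arrays lay below the sham arrays, and all left arrays lay above all right arrays. The left atrium was higher by 0.52 ± 0.08 in sham (adjusted p = 0.000362) and 0.50 ± 0.08 in shunt (adjusted p = 0.000576). The change with shunt was -0.25 ± 0.08 in the right (adjusted p = 0.11) and -0.27 ± 0.08 in the left atrium (adjusted p = 0.151). Eci2 (probe set 1388908_at), an enoyl-CoA isomerase of unsaturated chains, measured 9.60, 9.66 and 9.62 on right sham, 9.61, 9.61 and 9.54 on right shunt, 10.01, 10.13 and 10.02 on left sham and 9.76, 9.82 and 9.80 on left shunt arrays. The left sham arrays were highest, the left shunt arrays next, and the right arrays lowest. The difference was 0.43 ± 0.06 in sham (adjusted p = 0.000281) and 0.21 ± 0.06 in shunt (adjusted p = 0.0222). The latter did not pass without right shunt 3 (0.19, adjusted p = 0.0723) or left shunt 2 (0.20, adjusted p = 0.0654).

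The other 4 genes of this step passed in no comparison of the main fit. Averaged over both atria, Decr1 fell past the threshold without left shunt replicate 3 (-0.22, adjusted p = 0.0242) and with array weights (-0.195, adjusted p = 0.0478). Hadh, the short-chain hydroxyacyl-CoA dehydrogenase, lay between 10.96 and 11.36, although its dimmer probe set 1389922_at was higher on the left in shunt by 0.36 ± 0.13 (adjusted p = 0.0408). Acaa2, the mitochondrial thiolase, lay between 10.17 and 10.96, with group SDs of 0.21 to 0.30. Eci1, the other isomerase, lay between 9.98 and 10.28, and Decr1, the dienoyl-CoA reductase, between 10.97 and 11.31. Their left minus right differences in sham ran from 0.05 (Decr1) to 0.31 (Acaa2, 95% interval -0.08 to 0.70).

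Promoter windows of the genes that differed most between the atria were read from the RefSeq table of the rat build GRCr8, which covers 250 bases before to 50 after the annotated start and held 30 of the 36 genes. Lpl, Cpt1b, Acadl, Acaa2, Ech1 and Decr1 had no window. Acads and Acadsb are shown as the 2 with the largest left-right difference, and Hadha because it shares its start region with Hadhb. Each is given 5 prime to 3 prime on the strand of the gene, in lower case, with the GC box GGGCGG on either strand in capitals. The windows are chr12:47154083-47154382 (plus strand) for Acads, chr1:195618966-195619265 (plus strand) for Acadsb and chr6:31907551-31907850 (plus strand) for Hadha.
Acads: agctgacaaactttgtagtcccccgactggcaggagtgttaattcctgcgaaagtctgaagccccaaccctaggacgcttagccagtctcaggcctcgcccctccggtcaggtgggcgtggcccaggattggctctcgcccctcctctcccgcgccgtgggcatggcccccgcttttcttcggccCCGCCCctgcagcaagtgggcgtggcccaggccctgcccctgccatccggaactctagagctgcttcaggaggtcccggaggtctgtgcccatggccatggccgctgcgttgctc
Acadsb: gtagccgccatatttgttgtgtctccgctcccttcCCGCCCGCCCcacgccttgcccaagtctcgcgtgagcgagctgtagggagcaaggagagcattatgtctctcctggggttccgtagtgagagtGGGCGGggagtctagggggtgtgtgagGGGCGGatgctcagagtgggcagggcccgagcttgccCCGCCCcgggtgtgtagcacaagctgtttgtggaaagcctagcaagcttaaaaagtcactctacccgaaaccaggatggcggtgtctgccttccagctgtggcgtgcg
Hadha: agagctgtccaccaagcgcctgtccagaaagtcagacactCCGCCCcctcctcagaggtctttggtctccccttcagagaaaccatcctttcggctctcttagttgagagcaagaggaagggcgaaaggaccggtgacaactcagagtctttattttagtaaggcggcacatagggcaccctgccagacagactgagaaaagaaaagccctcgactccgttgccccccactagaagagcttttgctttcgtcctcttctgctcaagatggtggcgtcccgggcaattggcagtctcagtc
Acads and Hadha hold 1 GC box each and Acadsb holds 5. A GC box was found in 20 of the 30 windows (66.7%), against 33.1% of 33469 promoter windows in the table. The latter are all windows, whether or not the gene was measured here. The half-site AGGTCA repeated directly with 1 base between, the form of site bound by Ppara with its partner receptor, was found on either strand in none of the 30 and in 0.0538% of all windows. The relaxed form with the half-site AGGNCA, which includes it, was in none of the 30 and in 0.415% of all, and the extended half-site TCAAGGTCA, the form bound by estrogen-related receptors, in none of the 30 and in 0.433% of all. With shares this low, no match in 30 windows was the likely outcome for any set of genes. Whether these genes have such sites is therefore not answered. Hadha and Hadhb lie on opposite strands of chromosome 6, and their windows share 200 bases. The GC box of Hadha lies among the shared bases and is also found in the window of Hadhb.

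Electron transfer from the dehydrogenases held 3 genes, 2 of them higher in the left sham atrium and none in the left shunt atrium. Etfdh (probe set 1371519_at), the oxidoreductase that passes electrons to ubiquinone, was at 9.81, 9.85 and 9.83 in the right sham, 9.88, 9.89 and 9.90 in the right shunt, 10.14, 10.06 and 10.08 in the left sham and 9.91, 9.98 and 10.11 in the left shunt atrium. Left was above right without overlap in both operations, by 0.26 ± 0.07 in sham (adjusted p = 0.00959) and by 0.11 ± 0.07 in shunt, which did not pass (adjusted p = 0.223) and was 0.06 without left shunt replicate 3 (adjusted p = 0.567). Etfa (probe set 1371253_at), the alpha subunit of the flavoprotein, measured 11.001, 11.02 and 10.85 on right sham, 11.07, 11.26 and 11.19 on right shunt, 11.25, 11.28 and 11.25 on left sham and 11.24, 11.26 and 11.43 on left shunt arrays. The right sham arrays were the lowest. The left minus right difference of Etfa was 0.30 ± 0.08 in sham (adjusted p = 0.0112), and 0.25 without right sham 3, where it did not pass (adjusted p = 0.0503). Etfb, the beta subunit, lay between 11.42 and 11.72 and passed in no comparison.

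Among the genes of regulation and export, Ppara (probe set 1387278_at), the nuclear receptor, was dim, at 4.05, 4.22 and 4.41 in the right sham, 4.09, 4.27 and 4.29 in the right shunt, 4.58, 4.77 and 4.85 in the left sham and 4.93, 4.74 and 4.92 in the left shunt atrium. All left arrays lay above all right arrays. It was 1.42-fold higher on the left in sham (0.51 ± 0.11, adjusted p = 0.00242) and 1.57-fold higher in shunt (0.65 ± 0.11, adjusted p = 0.000558), and its change with shunt was -0.01 ± 0.11 in the right and 0.13 ± 0.11 in the left atrium, neither past the threshold. Ppargc1a (probe set 1393743_at), the coactivator, measured 8.22, 8.41 and 8.26 on right sham, 8.28, 8.47 and 8.49 on right shunt, 8.15, 8.36 and 8.24 on left sham and 7.88, 8.08 and 8.15 on left shunt arrays. The sham groups overlapped, and the left shunt arrays lay below the right shunt arrays. It was lower on the left in shunt (-0.37 ± 0.10, adjusted p = 0.00917), with -0.05 ± 0.10 in sham (adjusted p = 0.734). The other probe sets of Ppargc1a went another way: 1370089_at was higher on the left in sham by 0.73 ± 0.13 (adjusted p = 0.000974) and 1395518_at by 0.30 ± 0.11 (adjusted p = 0.0432), and in shunt they gave 0.19 and 0.17, not past the threshold. No direction between the atria is therefore given for the gene.

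Acot2 (probe set 1391433_at), the mitochondrial thioesterase that frees fatty acids from coenzyme A, was at 8.90, 8.82 and 8.91 in the right sham, 8.60, 8.74 and 8.55 in the right shunt, 9.31, 9.50 and 9.42 in the left sham and 9.17, 9.14 and 9.30 in the left shunt atrium. The groups did not overlap, with the left above the right and shunt below sham in each atrium. The left atrium was higher by 0.53 ± 0.08 in sham (adjusted p = 0.000243) and 0.57 ± 0.08 in shunt (adjusted p = 0.000185). Its probe sets disagreed between the atria. Probe set 1388210_at was also higher on the left, by 1.12 ± 0.12 in sham (adjusted p = 2.41e-05) and 1.17 ± 0.12 in shunt (adjusted p = 2.68e-05), while 1384115_at was lower there, by 0.34 ± 0.11 (adjusted p = 0.0336) and 0.65 ± 0.11 (adjusted p = 0.000851). Averaged over both atria, all 3 were negative with shunt, at -0.23, -0.23 (adjusted p = 0.182) and -0.34 (adjusted p = 0.0362). Ucp3 (probe set 1387681_at), the muscle uncoupling protein, was at 5.28, 5.20 and 5.02, 5.30, 4.86 and 5.11, 5.17, 5.13 and 4.99 and 5.35, 4.97 and 5.10 in the right sham, right shunt, left sham and left shunt atrium. Its 4 groups overlapped throughout, and it passed in no comparison.

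**Figure D4:**
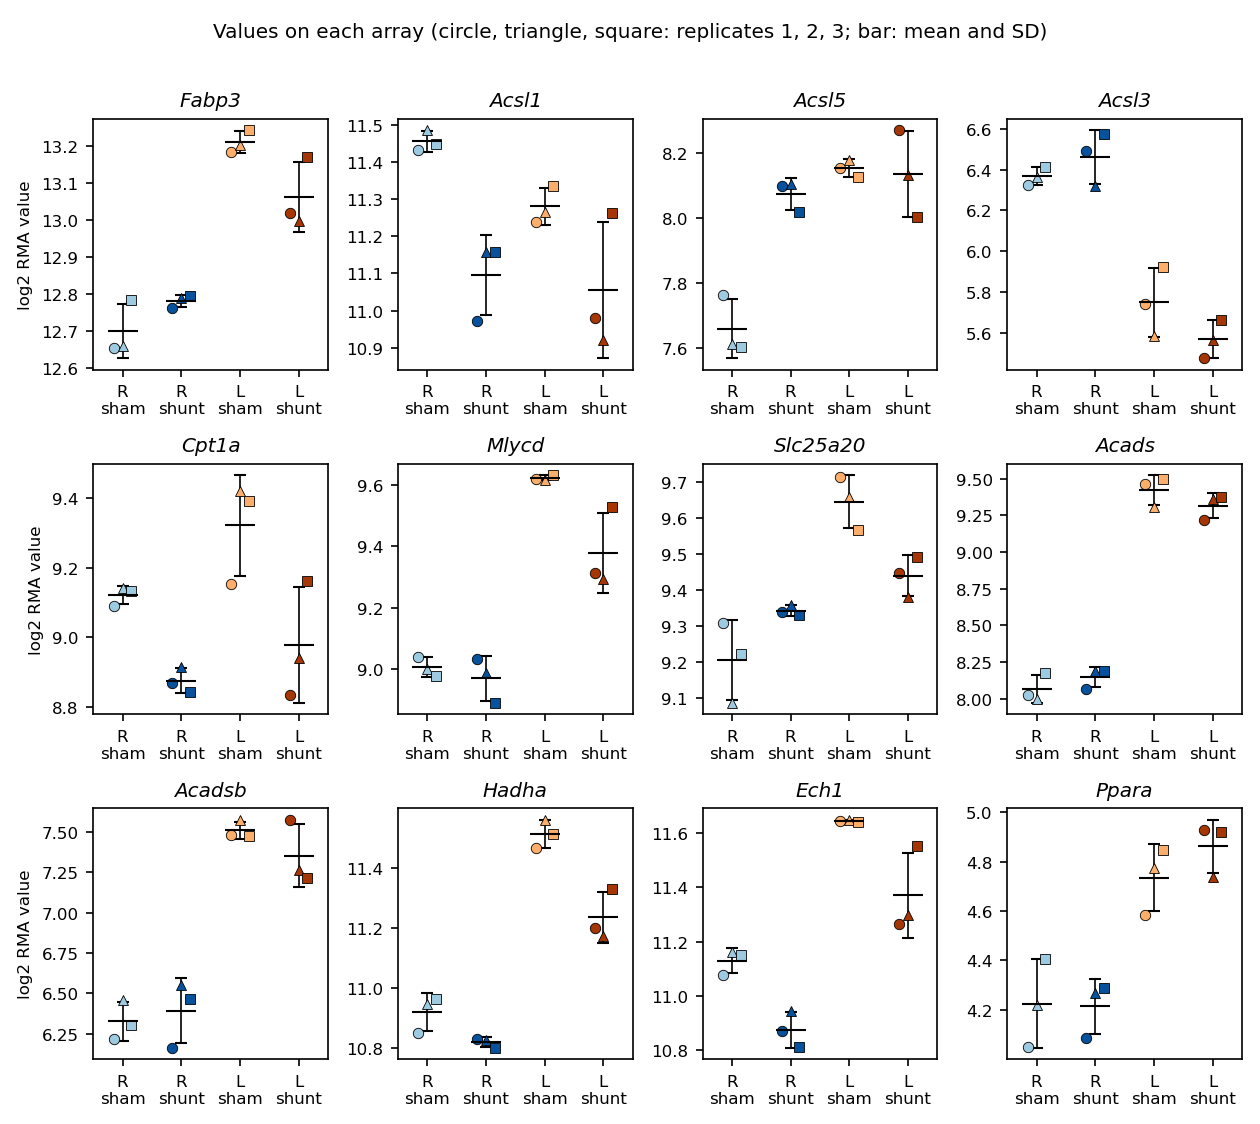
Log2 values of 12 genes on each array (circle, triangle and square for replicates 1, 2 and 3), with the mean and SD of each group of 3 arrays as bars, for right (R) and left (L) atria, on an axis of its own for each gene. Acsl5 is low on the right sham arrays only, Acads, Acadsb and Ppara separate left from right, and the left shunt square of Acsl1, Cpt1a, Mlycd and Ech1 lies near the left sham arrays.

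**Figure D5:**
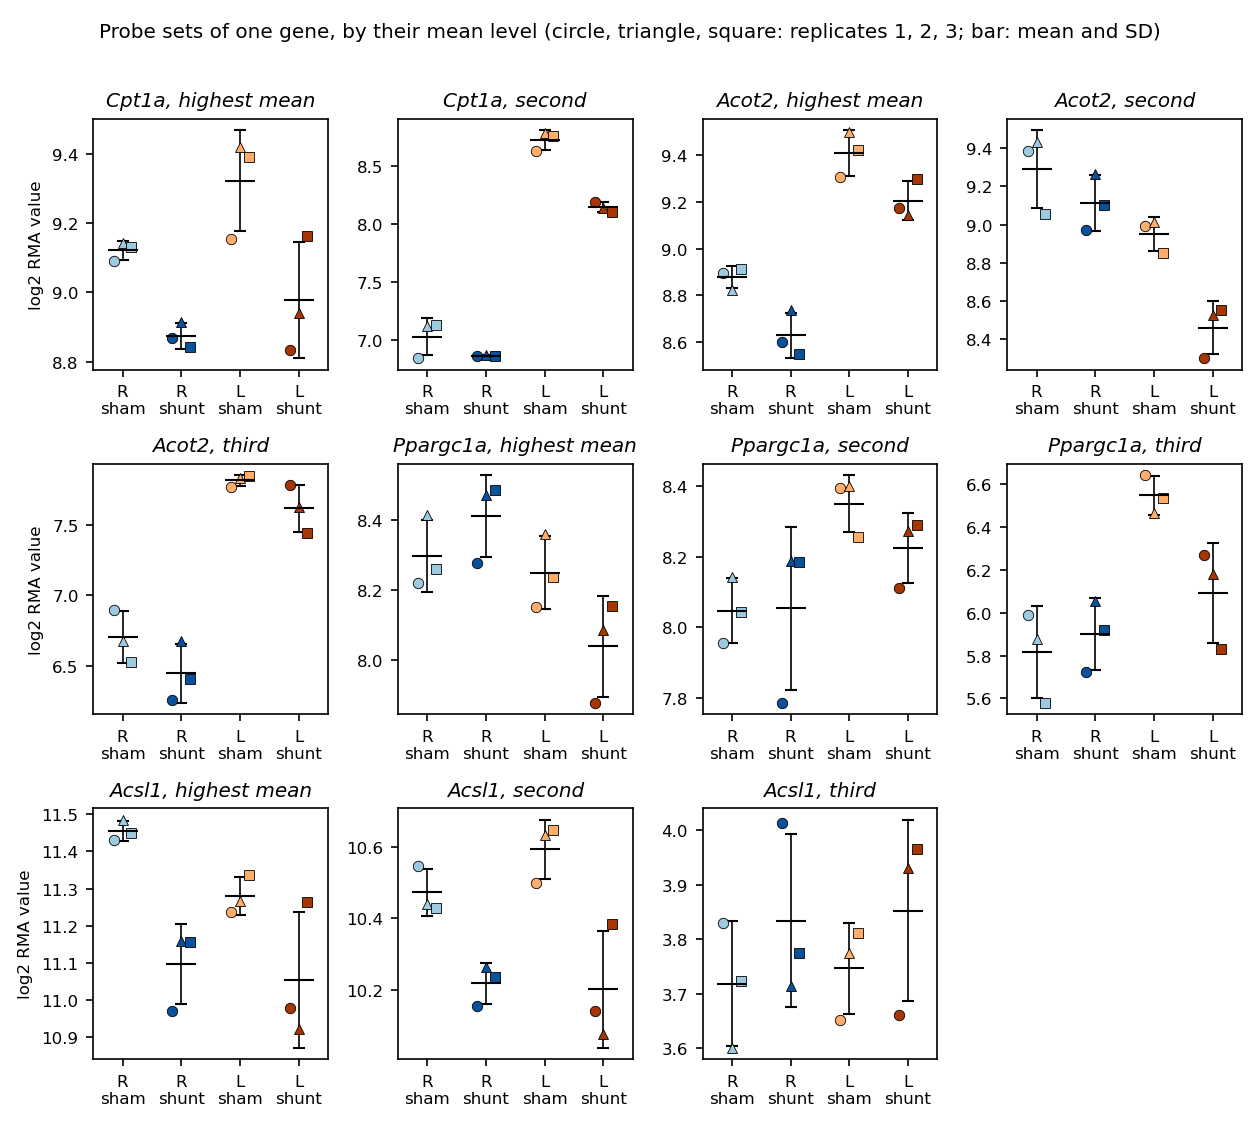
Log2 values of the probe sets that name Cpt1a, Acot2, Ppargc1a or Acsl1 alone, ordered by mean level within each gene, with symbols as replicates 1, 2 and 3 and bars as mean and SD of 3 arrays. The second probe set of Cpt1a separates left from right in both operations, the one of highest mean in sham but not in shunt, and the second probe set of Acot2 runs opposite to the other 2 between the atria.

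Genes around the pathway were read from lists set beside the members. Their counts between the atria stand against 22.2% of all genes called higher on the left and 15.4% lower in sham, and 21% and 19.4% in shunt. A list of 16 measured mitochondrial comparison genes held mostly genes of the citric acid cycle and respiratory chain, and also Vdac1 and Slc25a4. Of the 16, 8 were higher and none lower in the left sham atrium, with a median difference of 0.17. In the left shunt atrium 6 were higher. Those of smallest p in sham were Idh3a at 0.92 ± 0.07 (adjusted p = 2.47e-06), Cox5a at 1.23 ± 0.14, Ogdh at 0.45 ± 0.08 and Uqcrc1 at 0.34 ± 0.06. None of the 16 changed with shunt past the threshold in either atrium, with 1 unadjusted p under 0.05 in the right and 0 in the left (limma). The part of mitochondrial content in the left-right differences of the pathway was not tested.

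Of 18 other mitochondrial acyl-CoA and ketone enzymes, 8 were higher and 1 lower in the left sham atrium, and 6 higher and 2 lower in the left shunt atrium. They included Bdh1, which interconverts the ketone bodies, at 0.92 ± 0.10 left minus right in sham, Gcdh of lysine breakdown at 0.51 ± 0.07, Pccb of propionyl-CoA carboxylation at 0.48 ± 0.08 and Ivd of leucine breakdown at 0.43 ± 0.08. Bdh1 was at 5.05, 5.28 and 5.04 in the right sham and 6.23, 6.09 and 6.19 in the right shunt atrium, with no overlap. It rose there by 1.04 ± 0.10 (2.06-fold, adjusted p = 0.000342) and was the only 1 of the 18 past the threshold in that comparison. In the left atrium Bdh1 was at 6.14, 5.91 and 6.08 in sham and 6.64, 6.47 and 6.37 in shunt, again without overlap. The change there was 0.45 ± 0.10 (adjusted p = 0.0548), the average over both atria was 0.75 ± 0.07 (adjusted p = 0.000129), and the difference of the effects did not pass (-0.59 ± 0.14, adjusted p = 0.142). In the left atrium none of the 18 passed (limma, 4 with an unadjusted p under 0.05). Of 12 peroxisomal genes, Acox3 (0.54 ± 0.10), Hsd17b4 (0.30 ± 0.07) and Hacl1 (0.29 ± 0.10) were higher and Amacr (-0.19 ± 0.06) lower in the left sham atrium, the number higher being near the share of all genes. Hacl1, a lyase of peroxisomal alpha-oxidation, rose in the right atrium by 0.46 ± 0.10 (adjusted p = 0.0248), and averaged over both atria Pex11a, of peroxisome division, fell by 0.28 ± 0.06 (adjusted p = 0.0299).

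Of 17 genes of lipid droplets and lipoprotein handling, 7 were higher and 2 lower in the left sham atrium, and 7 higher and 4 lower in the left shunt atrium. Lipe, the hormone-sensitive lipase, was higher on the left by 1.18 ± 0.09 in sham and 1.19 ± 0.09 in shunt, and Slc27a1, a fatty acid transport protein, by 0.58 ± 0.08 and 0.53 ± 0.08. Those lower on the left in sham were Gpihbp1, which anchors Lpl on capillaries (-0.51 ± 0.12), and Mgll, the monoglyceride lipase (-0.54 ± 0.18). Averaged over both atria, Slc27a1 (-0.27 ± 0.06) and Lipe (-0.25 ± 0.06) fell with shunt and Vldlr, the receptor of very low density lipoprotein, rose (0.41 ± 0.07, adjusted p = 0.00859). Vldlr was higher without overlap in both atria, by 0.47 ± 0.10 in the right (adjusted p = 0.0328) and, not past the threshold, by 0.36 ± 0.10 in the left (adjusted p = 0.144). Angptl4, an inhibitor of Lpl and a common target of the Ppar receptors, was 0.006 ± 0.27 with shunt in the right and -0.32 ± 0.27 in the left atrium, neither past the threshold. Plin2, which coats lipid droplets, was 0.24 ± 0.08 and -0.01 ± 0.08, and Fabp4, of fat cells and endothelium, 0.10 ± 0.09 and -0.03 ± 0.09, also not past it.

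Of 17 regulators of fatty acid oxidation, 4 were higher and 4 lower in the left sham atrium, and 3 higher and 4 lower in the left shunt atrium, the numbers higher being near the shares of all genes. Acacb, which makes malonyl-CoA at the mitochondrion, was higher on the left by 1.15 ± 0.14 in sham (adjusted p = 6.87e-05) and 0.85 ± 0.14 in shunt (adjusted p = 0.000714), and Klf15, a transcription factor of lipid metabolism, by 0.40 ± 0.07 in sham. Nrip1, a corepressor, was lower on the left by 0.42 ± 0.08 in sham and 0.60 ± 0.08 in shunt, and the coactivator Ppargc1b by 0.60 ± 0.12 and 0.74 ± 0.12. Pdk4, the kinase that turns off pyruvate dehydrogenase and a target of Ppara, was at 9.46, 9.24 and 9.25 in the right sham, 8.72, 8.85 and 8.89 in the right shunt, 9.60, 9.63 and 9.58 in the left sham and 8.60, 8.52 and 8.73 in the left shunt atrium. It fell without overlap in both atria, by 0.49 ± 0.08 in the right (adjusted p = 0.0123) and 0.99 ± 0.08 in the left (adjusted p = 0.000244), and was the only 1 of the 17 that changed with shunt past the threshold in either of them. Of 4 carnitine synthesis genes, Aldh9a1 was higher on the left in sham (0.21 ± 0.06) and Bbox1 lower (-0.31 ± 0.10), and none changed with shunt past the threshold.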

How the data were processed

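Arrays were Affymetrix rat arrays, 12 in all. The deposited table held log2 values for each probe set and array. The submitters' processing notes name RMA as their source, and its version is not given in the sources used here. RMA equalizes the distribution of values between arrays (array medians 5.44 to 5.47), so a change shared by most transcripts is not visible, and high values are compressed. Depth does not apply to arrays, and 3 arrays per group limit the precision.

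Apart from 57 controls, all 31042 probe sets entered the tests. Of these 20826 name 1 gene in the annotation supplied, 436 several and 9780 none, and those with several gave no names. A linear model with 1 mean per group over all 12 arrays was fitted with limma 3.58.1 (lmFit, contrasts.fit, eBayes) in R 4.3.3, two-sided, with Benjamini-Hochberg adjustment over all probe sets and a threshold of 0.05. Every adjusted p is from this fit or, where an array is said to be left out, from the same fit without it. There were 6 comparisons: shunt minus sham in each atrium and averaged, the left minus right difference of the shunt effect, and the left minus right differences within sham and within shunt. Groups came from the sample titles.

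The members and lists were chosen with earlier results of these data known. Values on every array are given for members past the threshold in any comparison, for the 3 with the smallest p for the difference of the shunt effect, and for Cd36, Lpl, Fabp3, Acsl1, Cpt1a, Cpt1b, Cpt2, Acadvl, Acadm, Hadha, Etfdh, Ucp3, Ppara and Ppargc1a. From each list of related genes up to 4 are named per comparison by smallest p, and Pdk4, Angptl4, Plin2 and Fabp4 whatever their values; 1 item is not reported here. Pex11a and the genes of lists lower on the left were named after their values were seen. Of the members, 24 had 1 probe set and 11 had several.

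The fit was tested on simulated data in which 200 of 31042 probe sets were given a known change with shunt in the left atrium: 10% of changes of 0.3 in log2 were called, 38% at 0.5 and 98% at 1, and 3.94% of the 127 calls were false. Alternatives were a filter on dim probe sets, a second quantile normalization, median centring of arrays, trend and robust options of eBayes, array weights, a fit on only the groups compared, a block for the replicate number, 1 probe set or the mean of several for a gene, and each array left out in turn.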

Additional observations from a re-analysis of the deposited data

Results flagged for a closer look

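Slc25a20 was picked out because its 3 right shunt arrays were all above the right sham arrays and its 3 left shunt arrays all below the left sham arrays. The difference of the shunt effects, left minus right, was -0.34 in log2 and did not pass the threshold (limma, adjusted p = 0.207). Such a pattern in 1 of 35 genes was chosen from the values.

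Probe sets outside the rule of 1 per gene gave changes that the probe set of highest mean did not give, or gave as well. Cpt1a on probe set 1367836_at changed with shunt by -0.58 in the left atrium (adjusted p = 0.00742) and by -0.37 averaged over both atria (adjusted p = 0.00506). Acot2 on probe set 1384115_at changed by -0.34 averaged over both atria (adjusted p = 0.0362). Acsl1 on probe set 1388153_at changed by -0.32 averaged over both atria (adjusted p = 0.0123).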

How the results depend on the processing

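No call of the main fit for the 35 genes reversed its direction under an alternative. Results not past the threshold were not followed in this way. Small changes among them could switch sign, as Acsl5 in the left atrium did without left shunt 3. Of the left minus right calls, 20 of 22 in sham and 13 of 17 in shunt passed in every alternative, with counts of 21 to 25 and 14 to 17. Of the shunt calls none did. In the right atrium 2 genes passed without dim probe sets, 3 with trend and robust options, 3 with array weights, 2 with only the groups compared and 2 with 1 probe set per gene, and 0 to 3 with an array left out. In the left atrium 2 passed without dim probe sets, 4 with trend and robust options and 2 with the mean of all probe sets, and 0 to 4 with an array left out. For the average of both atria 7 passed without dim probe sets, 8 with trend and robust options and 7 with array weights, 6 with 1 probe set per gene, and 0 to 8 with an array left out. Averaging all probe sets took Hadha in sham (0.15), Acsl6 in shunt (-0.26), Ppargc1a in shunt (-0.003) and the average change of Acsl1 (-0.17) below the threshold, and Eci2 in shunt (0.21) did not pass with only the groups compared. With the replicate number as a block the counts were 1 in the right and 0 in the left atrium, 3 for the average, where Acot2 did not pass (adjusted p = 0.0649), 0 for the difference of effects, and 23 and 17 between the atria in sham and shunt. The labels do not say that a number pairs left with right. The block also ties sham arrays to shunt arrays of the same number. It therefore does not stand for a pairing of left with right within an operation, and such a pairing was not fitted. The deviations of arrays from their group means were correlated between the atria. Same-numbered arrays gave 0.0789 to 0.148 in sham and 0.0946 to 0.143 in shunt. Within each operation, 6 of 6 arrays correlated best with their own number in the other atrium. Arrays of different operations also reached such values, as right sham 2 with left shunt 3 (0.131), so the pairing is only a hint from the data. In simulation, changes of 0.3 in log2 with shunt in the left atrium were mostly missed. The other comparisons were not simulated. The cause of these dependencies was not tested.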
